A study of Mus musculus with 8 samples.

Results

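The genes described here are 6 claudins (Cldn2, Cldn3, Cldn4, Cldn7, Cldn15 and Cldn23) and 3 other tight junction genes (Tjp1, Ocln and Cgn). These 9 genes were taken by symbol from a table of 54532 genes, and all 9 had enough counts to be tested among 9855 genes. The samples were intestinal epithelial cells from mice at lactation day 5, from 4 WT and 4 Rank-knockout animals, with 1 library for each. Rank (gene symbol Tnfrsf11a) is the receptor for the cytokine RANKL. Per the study's methods, the knockout mice carried floxed Rank alleles and a Cre transgene under the Villin promoter, which is active in the intestinal epithelium, on a C57BL/6J background, and the mice compared were littermates. The labels give the controls only as WT, so whether these carried floxed alleles or the transgene is not stated, and the labels name the tissue as intestine without a segment.

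Tight junctions seal the space between neighbouring epithelial cells near their apical border. Claudins are the membrane proteins that form the strands of the junction, and the claudins present in a cell set how leaky the junction is and to which ions. Occludin (Ocln) lies in the same strands, and the plaque proteins ZO-1 (Tjp1) and cingulin (Cgn) tie the strands to the actin cytoskeleton. In the adult small intestine, Cldn2, which forms a pore for cations and water, is found mainly in the crypts, where cells divide. Cldn15, a pore for sodium, is found along the crypt and the villus, and with Cldn2 it lets sodium back into the lumen for the uptake of nutrients. Cldn3 and Cldn4 are mostly sealing claudins, Cldn7 lies largely along the basolateral membrane, and Cldn4 and Cldn23 are found mainly in differentiated cells.

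The libraries read the 3′ ends of transcripts, which gives about 1 tag a transcript whatever its length. Levels are given as CPM, that is, counts per 1000000 counts in the tested genes of the library after scaling. Genes were set side by side by their tags, and whether tags were captured equally from each gene was not checked. Total counts ran from 1530781 to 4335653 in WT and from 2103716 to 4321154 in Rank-knockout libraries. Tnfrsf11a had 41.7 to 77.4 CPM in WT and 27.2 to 47.2 CPM in Rank-knockout libraries (log2 fold change -0.67, SE 0.22, edgeR adjusted p = 0.0321), and the genotypes overlapped. Tags at the 3′ end need not come from the exons removed by Cre, and these values do not check the deletion. Markers of endothelial cells summed to at most 5.48 CPM in any library, and those of stromal and muscle cells to at most 19.9 CPM. Immune cell markers summed to 188 to 281 CPM in WT and 120 to 197 CPM in Rank-knockout libraries. Of the 5 tested, edgeR called 0, where 15.8% of all genes tested were called higher and 14.6% lower. All 5 had a negative log2 fold change, with a median of -0.44 (1 lower at an unadjusted p under 0.05 in edgeR). DESeq2 and limma-voom called 0 of them. Epcam, an epithelial surface protein, averaged 2045 CPM across WT libraries and 1495 CPM across those of the knockout.

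Of the 9 genes, Cldn4 and Cldn15 were lower in Rank-knockout epithelium, none was called higher, and 7 did not pass the test. Calls were made at a Benjamini-Hochberg adjusted p under 0.05 in edgeR's quasi-likelihood test over all genes tested, where 14.6% of genes were called lower and 15.8% higher. Higher genes made up 52.0% of these calls, 74.9% with library totals as the scale and 68.1% without the 50 most abundant genes. Cldn2 was 2.22-fold higher in the knockout by the same fit and stayed outside the threshold. For the same pair, 2 of the 9 genes, no WT level fell within the range of the Rank-knockout levels or the reverse, against 28.8% of all genes tested. The median log2 fold change, Rank-knockout minus WT, was -0.09 over the 9 genes and 0.02 over all genes tested. At an unadjusted p under 0.05, 1 of the 9 genes was higher, Cldn2, and 2 were lower, Cldn4 and Cldn15. DESeq2 called 0 of the 9 higher and limma-voom 1, Cldn2, and both called the same number lower, 2. The number lower was 1, Cldn4, with library totals, without the 50 most abundant genes, with no filter on low counts and with any 1 of 5 libraries left out, and it was 4 without WT replicate 2. In these bulk samples, fewer cells of a type and less RNA per cell cannot be told apart.

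The stretches before the RefSeq starts of these 3 genes are shown because these were the 3 with an unadjusted p under 0.05. The coordinates are of GRCm38.p6. They are chr5:134946935-134947184 on the minus strand for Cldn4, chr5:136967619-136967843 on the plus strand for Cldn15 and chrX:139800558-139800807 on the plus strand for Cldn2. Each run is written 5′ to 3′ along the gene's strand, with matches to the motifs searched in capitals. The Cldn15 run leaves out the last 25 bases before the start, which an exon of another annotated transcript covers, and the RefSeq start of Cldn2 lies 20 bases before the start of the gene in GENCODE M21.
Cldn4: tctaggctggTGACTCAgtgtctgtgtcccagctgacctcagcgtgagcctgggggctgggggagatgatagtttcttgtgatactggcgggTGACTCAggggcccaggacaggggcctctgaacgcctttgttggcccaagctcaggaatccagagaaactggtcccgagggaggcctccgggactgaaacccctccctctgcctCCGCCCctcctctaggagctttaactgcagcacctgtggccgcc
Cldn15: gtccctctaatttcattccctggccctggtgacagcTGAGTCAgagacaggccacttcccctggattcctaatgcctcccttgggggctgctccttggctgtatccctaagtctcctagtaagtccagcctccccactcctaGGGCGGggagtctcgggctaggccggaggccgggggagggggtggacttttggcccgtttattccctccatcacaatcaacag
Cldn2: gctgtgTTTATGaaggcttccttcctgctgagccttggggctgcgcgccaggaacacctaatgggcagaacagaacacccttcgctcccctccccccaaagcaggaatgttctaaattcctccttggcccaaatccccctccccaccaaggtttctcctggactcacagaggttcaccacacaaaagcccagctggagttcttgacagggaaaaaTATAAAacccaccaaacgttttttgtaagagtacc

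The motifs were searched on both strands in the 250 bases before the start, for the 8 of 9 genes in the set of RefSeq promoters used. Cldn23 was not in that set, and Cldn7 and Ocln have 2 starts each. No motif searched overlapped another in the runs shown. The letters TGANTCA, those of an AP-1 site, were found 2 times before Cldn4, at positions -240 and -158 from the start, and 1 time before Cldn15, at -214. They were found before none of the other 6 genes searched, and 6.75% of 32851 mouse promoters of this length hold them. The GC box GGGCGG was found before Cldn4 at -44 and before Cldn15 at -108, and was also found before Cldn3, Cldn7, Tjp1, Ocln and Cgn, that is, before 7 of the 8 genes searched. Of all promoters, 32.7% hold it. Before Cldn2 stood TATAAA, the letters of a TATA box, at -35, and TTTATG, the core of sites of the intestinal factor CDX2, at -244. TATAAA was in 12.4% and TTTATG in 10.8% of promoters. The letters GTTAAT (6.43% of promoters), CAAAGTCCA (0.384%), AGATAA (9.99%) and CTTTGAT (3.21%) were not in the windows of the 8 genes. These matches describe letters only.

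Cldn4 (ENSMUSG00000047501, GRCm38 chromosome 5, 134945119 to 134946934, minus strand), a sealing claudin of differentiated cells, fell about 3-fold. WT replicates 1 to 4 had 211, 239, 272 and 268 CPM, against 89.8, 66.4, 108 and 60.6 CPM in Rank-knockout replicates 1 to 4. Every Rank-knockout library lay below every WT library, and the gap between the genotypes was wider than the range within either. The WT mean was 248 ± 28.6 CPM and the Rank-knockout mean 81.2 ± 21.8 CPM (SD, n = 4 each). The log2 fold change was -1.61 (SE 0.18, 95% interval -1.99 to -1.23, edgeR adjusted p = 9.88e-05), or 3.06-fold lower. Only 32 of the 9855 genes tested, 0.325%, had a log2 fold change as low or lower. The call was kept in every alternative run, with log2 fold changes of -1.77 to -1.41.

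Cldn15 (ENSMUSG00000001739, chromosome 5, 136966616 to 136975858, plus strand), the sodium pore and the second most abundant claudin here, was lower by 1.35-fold. It had 1266, 1237, 1241 and 1236 CPM in the WT libraries and 701, 1032, 967 and 991 CPM in the Rank-knockout libraries. The WT libraries were close to each other, all Rank-knockout libraries lay below them, and replicate 1 was the lowest. The means were 1245 ± 14.2 CPM and 923 ± 150 CPM (SD, n = 4 each), with a log2 fold change of -0.43 (SE 0.15, 95% interval -0.75 to -0.12, edgeR adjusted p = 0.0370). Of all genes tested, 20.5% had a log2 fold change as low or lower. The call was lost without Rank-knockout replicate 1 (-0.32, adjusted p = 0.0918) or 3 (-0.45, 0.0688) and without WT replicate 1 (-0.45, 0.0736), 3 (-0.45, 0.0748) or 4 (-0.46, 0.0643). It was also lost with plain library totals as the scale (-0.24, adjusted p = 0.198), without the 50 most abundant genes (-0.31, 0.115) and with no filter on low counts (-0.40, 0.0763).

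Cldn2 (ENSMUSG00000047230, chromosome X, 139800828 to 139811386, plus strand), the cation and water pore of the crypt, had a positive log2 fold change, with the widest interval of the claudins other than Cldn23. The WT libraries held 43.8, 82.4, 47.8 and 19.3 CPM and the Rank-knockout libraries 177, 88.9, 98.9 and 79.3 CPM. Rank-knockout replicate 1 was far above the others, and WT replicate 2 lay above Rank-knockout replicate 4, so the genotypes overlapped. The means were 48.3 ± 26.0 CPM and 111 ± 44.5 CPM (SD, n = 4 each). The log2 fold change was 1.15 (SE 0.41, 95% interval 0.21 to 2.09) with an unadjusted p of 0.0220 and an edgeR adjusted p of 0.0655. Among all genes tested, 3.41% had a log2 fold change as high or higher. The adjusted p passed the threshold with limma-voom (0.0227), with library totals (0.0323) and without the 50 most abundant genes (0.0402). It also passed without WT replicate 2 (log2 fold change 1.58, adjusted p = 0.0135). The replicate number as a block gave a call too, though these numbers were not shown to pair the samples. DESeq2 did not call Cldn2. The adjusted p reached 0.174 among the alternatives with all libraries and 0.137 with 1 library left out. Without Rank-knockout replicate 1 the log2 fold change was 0.83 (adjusted p = 0.134).

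**Figure D1:**
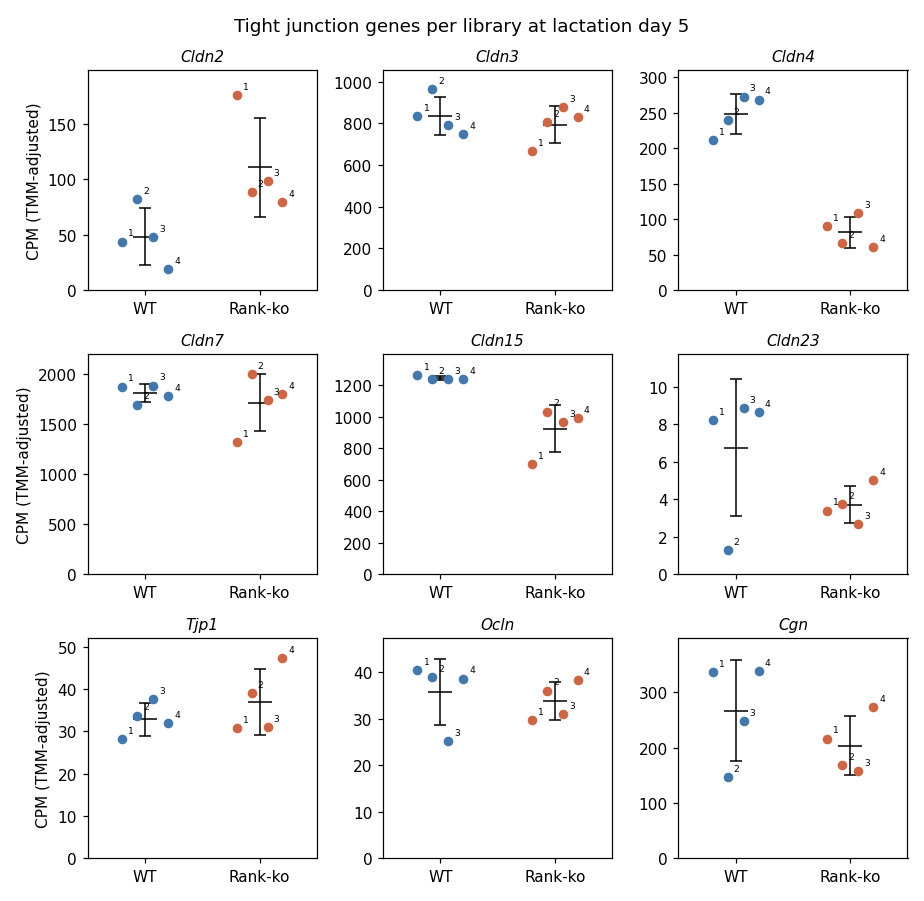
Level of each of the 9 genes in every library, in CPM after TMM scaling, on axes that start at 0. Blue points are WT and orange points are Rank-knockout libraries, numbered by replicate, and black bars are the mean ± SD (n = 4). The genotypes do not overlap for Cldn4 and Cldn15, and Rank-knockout replicate 1 stands highest for Cldn2 at 177 CPM and lowest for Cldn15 at 701 CPM.

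The remaining claudins did not pass the test. Cldn7 (ENSMUSG00000018569, chromosome 11, 69964779 to 69967885, plus strand), the basolateral claudin, was the most abundant, with 1876, 1696, 1886 and 1781 CPM in WT and 1321, 2005, 1739.6 and 1797 CPM in Rank-knockout libraries. Its log2 fold change was -0.08 (95% interval -0.40 to 0.24, edgeR adjusted p = 0.738). The highest and the lowest level of Cldn7 were both in Rank-knockout libraries.

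Cldn3 (ENSMUSG00000070473, chromosome 5, 134986214 to 134987472, plus strand), a sealing claudin, had 837, 965, 794 and 749 CPM in WT and 667, 806, 878 and 829 CPM in Rank-knockout libraries, a log2 fold change of -0.07 (95% interval -0.38 to 0.23, edgeR adjusted p = 0.736). The genotypes overlapped broadly for Cldn3. The signs for Cldn3 and Cldn7 depended on the scale, since library totals gave 0.12 for each of them. Differences inside the 2 intervals could not be told from 0 with these libraries.

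Cldn23 (ENSMUSG00000055976, chromosome 8, 35824712 to 35826559, minus strand), a claudin of differentiated cells, was scarce. It had 12, 5, 13 and 13 counts in WT and 16, 10, 6 and 19 counts in Rank-knockout libraries, or 8.22, 1.27, 8.88 and 8.65 CPM against 3.40, 3.75, 2.70 and 5.01 CPM. WT replicate 2, the deepest WT library, lay below all the others, and the other 3 WT libraries lay above all Rank-knockout libraries. With all libraries the log2 fold change was -0.64 (SE 0.50, 95% interval -1.70 to 0.41, edgeR adjusted p = 0.348), and without WT replicate 2 it was -1.18 (adjusted p = 0.0180).

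Of the 30 other claudin symbols looked up, 27 were in the table and 20 of these had 0 counts in every library. A further 6 had 1 to 12 counts over all libraries and were not tested. Cldn12 was tested and had a log2 fold change of 0.26 (95% interval -0.18 to 0.71, edgeR adjusted p = 0.361), where the WT mean was 32.0 ± 9.28 CPM and the Rank-knockout mean 37.4 ± 5.15 CPM (SD, n = 4 each). The claudin tags of these cells thus came almost wholly from the 6 claudins above and Cldn12.

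The claudins were also compared with each other within each library, where its scale drops out. Of those compared, Cldn2 is mainly of the crypt, and Cldn4 and Cldn23 are mainly of differentiated cells. Cldn4 and Cldn15 held smaller shares of the claudin counts in Rank-knockout libraries, and Cldn2 and Cldn7 larger ones. Cldn4 made up 5.87 ± 0.743% of all claudin counts in WT and 2.26 ± 0.746% in Rank-knockout libraries, and Cldn15 made up 29.5 ± 0.574% and 25.1 ± 1.18% (SD, n = 4 each). Cldn2 made up 1.14 ± 0.606% and 3.19 ± 1.81%, with WT libraries at 0.472% to 1.94% and Rank-knockout libraries at 2.09% to 5.88%. Cldn7 made up 42.8 ± 1.91% and 46.6 ± 2.42%.

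For these 4 claudins the shares of the genotypes were separate, whereas for Cldn3 (19.8 ± 2.05% and 21.7 ± 1.27%), Cldn12 and Cldn23 they overlapped. The margins were small for Cldn7, where the highest WT library had 43.97% and the lowest Rank-knockout library 44.01%, and for Cldn2, where WT replicate 2 had 1.94% (95% Wilson interval 1.74% to 2.16%) and Rank-knockout replicate 4 had 2.09% (1.87% to 2.33%). The intervals for Cldn2 overlap and cover counting error only. The shares sum to the whole, so a fall in one raises the others, and no test was made on them. Summed over all claudins, WT libraries had 4227 ± 94.1 CPM and Rank-knockout libraries 3668 ± 456 CPM (SD, n = 4 each).

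**Figure D2:**
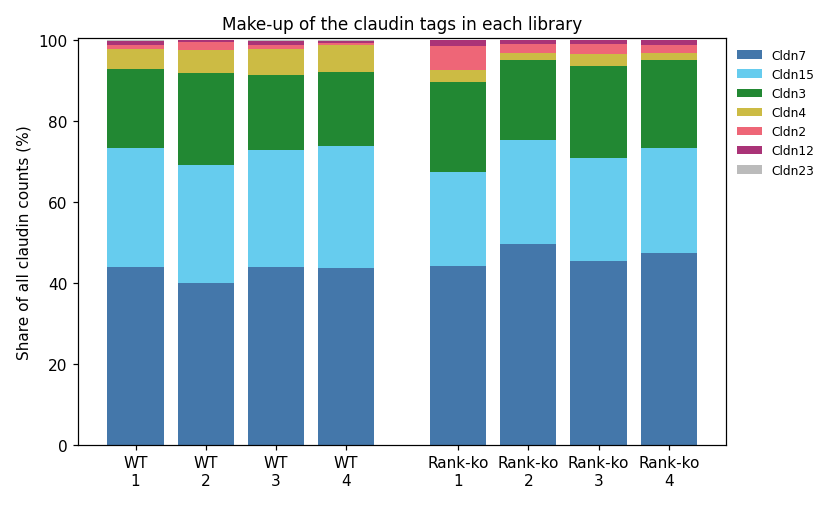
Share of each claudin in all claudin counts of a library, in percent, as stacked bars from 0 for the 4 WT and the 4 Rank-knockout libraries. Cldn4, in yellow, has a mean of 5.87% in WT and 2.26% in Rank-knockout libraries, and Cldn2, in pink, has 1.14% and 3.19%, with the highest share, 5.88%, in Rank-knockout replicate 1.

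The ratio of Cldn2 to each of the 5 other claudins among the 9 genes was then tested on the log2 scale, by an exact two-sided permutation test over the libraries. With 4 libraries against 4 the smallest p this test can give is 0.0286. Cldn4 gave 4.81, 2.90, 5.70 and 13.9 counts for each count of Cldn2 in WT libraries and 0.508, 0.747, 1.09 and 0.764 in Rank-knockout libraries. Cldn4 tags thus outnumbered Cldn2 tags in every WT library, and in 3 of the 4 Rank-knockout libraries Cldn2 tags outnumbered those of Cldn4.

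The log2 ratio of Cldn2 to Cldn4 was 2.93 higher in the knockout, or 7.63-fold (exact p = 0.0286, the smallest possible, adjusted over 5 ratios 0.0476). Cldn15 gave 28.9, 15.0, 26.0 and 64.0 counts for each count of Cldn2 in WT and 3.97, 11.6, 9.78 and 12.5 in Rank-knockout libraries, and the ratio of Cldn2 to Cldn15 was 3.34-fold higher (log2 difference 1.74, exact p = 0.0286, adjusted 0.0476). The ratio to Cldn3 was 2.58-fold higher, with the same exact p values of 0.0286 and 0.0476 after adjustment. In these 3 ratios every Rank-knockout library lay above every WT library.

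The ratio to Cldn7 (2.61-fold, exact p = 0.0857, adjusted 0.107) and to Cldn23 (3.62-fold, exact p = 0.143, adjusted 0.143) did not pass, and their libraries overlapped. All 5 ratios share the Cldn2 counts and are not independent. They use the same counts as the levels above and were chosen with earlier results known, so they are no separate evidence for the differences in those levels. The 3 calls were lost without WT replicate 4 (adjusted p from exact tests of 0.0714 to 0.0952) or without any 1 Rank-knockout library (0.0952), and without WT replicate 2 all 5 ratios passed (adjusted exact p = 0.0286).

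**Figure D3:**
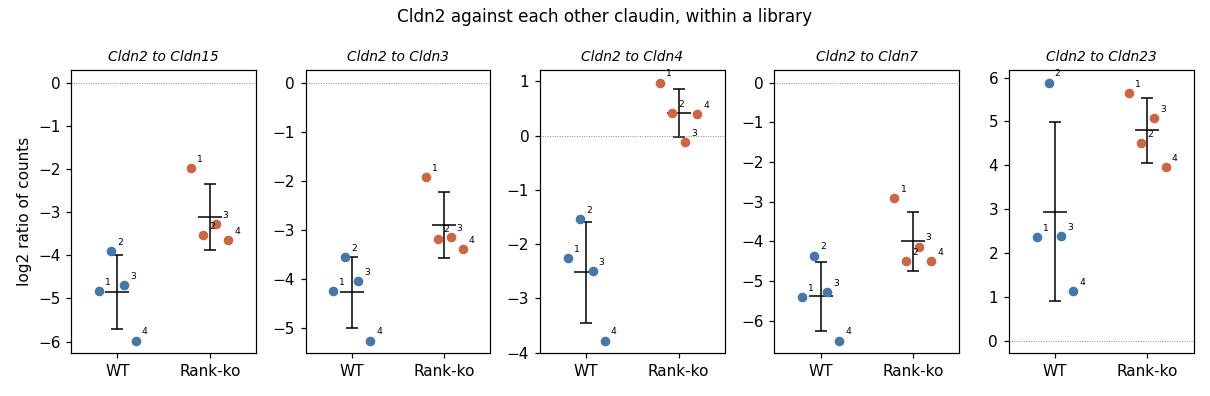
Log2 ratio of Cldn2 counts to those of each of 5 other claudins in every library, with a pseudocount of 0.5. Points are libraries numbered by replicate, black bars are the mean ± SD (n = 4) and the dotted line marks equal counts. For Cldn4 the WT libraries lie below the line and 3 of 4 Rank-knockout libraries lie above it.

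Occludin and the plaque genes among the 9 did not pass the test. Tjp1 (ENSMUSG00000030516, chromosome 7, 65296165 to 65527781, minus strand), the scaffold ZO-1, had 28.1, 33.7, 37.6 and 32.0 CPM in WT and 30.8, 39.0, 31.0 and 47.2 CPM in Rank-knockout libraries. Its log2 fold change was 0.17 (95% interval -0.23 to 0.57, edgeR adjusted p = 0.520). The groups overlapped, and the highest level was in Rank-knockout replicate 4.

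Ocln (ENSMUSG00000021638, chromosome 13, 100496507 to 100552718, minus strand) had 40.4, 39.0, 25.3 and 38.6 CPM in WT and 29.7, 36.0, 31.0 and 38.2 CPM in Rank-knockout libraries. Its log2 fold change was -0.09 (95% interval -0.49 to 0.30, edgeR adjusted p = 0.738), and it was 0.10 with library totals. WT replicate 3 was the lowest library and the groups overlapped.

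Cgn (ENSMUSG00000068876, chromosome 3, 94760069 to 94786492, minus strand), cingulin, had 336, 146, 248 and 338 CPM in WT and 217, 169, 157 and 273 CPM in Rank-knockout libraries. WT replicate 2 was the lowest of all, and WT replicate 3 lay below Rank-knockout replicate 4, so the genotypes overlapped. The log2 fold change was -0.38 (SE 0.25, 95% interval -0.93 to 0.17, edgeR adjusted p = 0.283), and without WT replicate 2 it was -0.59 (adjusted p = 0.0214). The levels of the 9 genes ran, by WT mean, from Cldn7, Cldn15 and Cldn3 over Cgn and Cldn4 to Cldn2, Ocln, Tjp1 and Cldn23. In this order the WT libraries of Cgn and Cldn4, and those of Cldn2, Ocln and Tjp1, overlapped.

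Across the 44 tested genes of 4 further tight junction lists (other claudins, other membrane proteins, plaque and polarity proteins, and regulators), 4 were higher, 10 were lower and 30 were not called, with a median log2 fold change of -0.10. Those higher were 9.09% of the 44 genes and those lower 22.7%, against 15.8% and 14.6% of all genes tested. The genotypes did not overlap for 16 of them, or 36.4%, against 28.8% of all genes.

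Of the 7 tested membrane proteins, 1 was lower and 6 were not called, with a median log2 fold change of -0.26. The one lower was F11r, the adhesion molecule JAM-A, which had 1164 to 1431 CPM in WT and 802 to 1019.6 CPM in Rank-knockout libraries (log2 fold change -0.60, SE 0.14, edgeR adjusted p = 0.00565). Marveld2, tricellulin, which seals the corners where 3 cells meet, had a log2 fold change of -0.26 (edgeR adjusted p = 0.284).

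Among the 16 tested plaque and polarity genes, 4 were higher, 4 were lower and 8 were not called, with a median log2 fold change of 0.03. Mpp5, the polarity protein PALS1, was lower at 130.5 to 145 CPM against 219.9 to 257 CPM in WT (log2 fold change -0.83, edgeR adjusted p = 0.000407). Ybx3, the transcription factor ZONAB that binds ZO-1, was higher at 176 to 281 CPM against 68.6 to 137 CPM (log2 fold change 1.13, edgeR adjusted p = 0.000945). Amot, angiomotin, was also higher (log2 fold change 0.93, edgeR adjusted p = 0.00136), and Prkcz, the atypical protein kinase C zeta of the polarity complex, was lower (log2 fold change -0.56, edgeR adjusted p = 0.0175). The Prkcz call was lost without WT replicate 4 (adjusted p = 0.0532) or Rank-knockout replicate 2 (0.0601), with library totals (0.100) and without the 50 most abundant genes (0.0553). Tjp3, a close relative of Tjp1, had a log2 fold change of 0.21 (edgeR adjusted p = 0.401).

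Of the 20 tested regulators, 5 were lower and 15 were not called, with a median log2 fold change of -0.20. Arhgef2, the exchange factor GEF-H1 that activates RhoA, had a log2 fold change of -0.88 (edgeR adjusted p = 0.000615). Spint1, an inhibitor of the protease matriptase, had -0.68 (edgeR adjusted p = 0.00207), and the kinases Rock2 and Mylk, which act on myosin, had -0.59 (0.00721) and -0.57 (0.0137). With library totals Mylk was not called (-0.37, adjusted p = 0.0622). Epcam, which binds and stabilises Cldn7, had a log2 fold change of -0.45 (edgeR adjusted p = 0.0241). Epcam was not called when any 1 of 4 libraries was left out, WT replicates 3 and 4 and Rank-knockout replicates 2 and 3 (adjusted p from 0.0593 to 0.0786), nor with library totals (-0.25, 0.156), without the 50 most abundant genes (0.0827) or with no filter on low counts (0.0593).

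**Figure D4:**
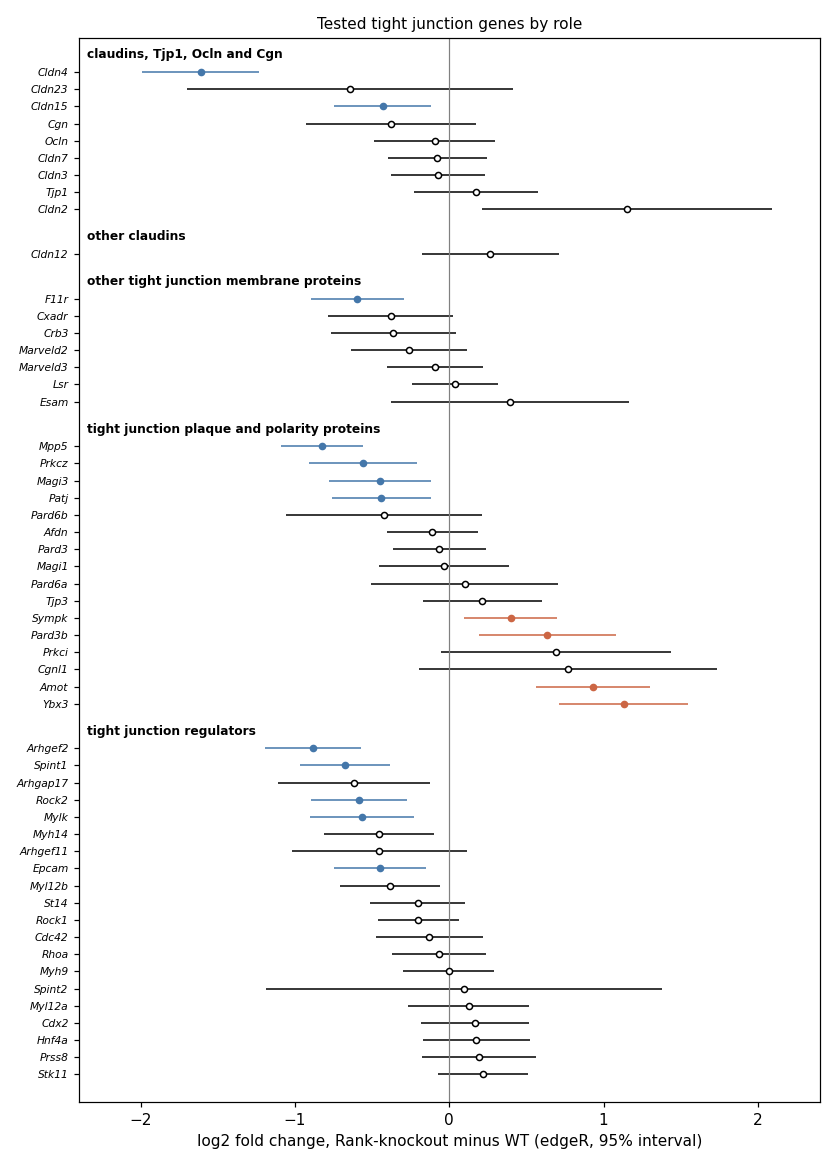
Log2 fold change, Rank-knockout minus WT, with the 95% interval from edgeR, for the 9 genes and the tested genes of 4 further tight junction lists, ordered by size within each list. Filled blue points are called lower and filled orange points higher at an adjusted p under 0.05, and open points are not called. Cldn4 at -1.61 is the furthest from 0, and the plaque and polarity genes lie on both sides.

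Genes of the other junctions of these cells were counted in the same way. Of 10 adherens junction genes, 2 were lower and 8 were not called, with a median log2 fold change of -0.30, and of 8 desmosome genes, 1 was lower and 7 were not called, with a median of -0.25. These were 20% and 12.5% of the lists, against 14.6% of all genes tested. DESeq2 called 3 adherens junction and 2 desmosome genes lower, and limma-voom 1 of each. Ctnna1, α-catenin, had a log2 fold change of -0.56 (edgeR adjusted p = 0.00551), Cdh17, the intestinal cadherin, had -0.45 (0.0498) and Dsg2, a desmoglein, had -0.66 (0.00412). The Cdh17 call was the weakest of these, and leaving out any 1 library other than WT replicate 2 or Rank-knockout replicate 4 ended it (adjusted p from 0.0877 to 0.148), as did library totals (-0.26, 0.240) and 4 other settings (0.0503 to 0.145).

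Markers of other cell types and positions were examined beside the claudins. Of all genes tested, 15.8% were higher and 14.6% lower, the shares against which the counts of these short lists are to be read. Of 12 villus enterocyte markers, 11 were lower and 1 was not called, with a median log2 fold change of -1.06 and a summed level of 11193 to 18983 CPM in WT and 5846 to 10384 CPM in Rank-knockout libraries. The trehalase gene Treh (-1.39), Ace (-1.40), Mep1a (-1.33) and Mep1b (-1.07), brush border enzymes, were among them (edgeR adjusted p = 9.88e-05, 0.000140, 0.000132 and 0.000320 in this order). All 16 replication and cell cycle markers were higher by edgeR (15 by DESeq2 and 15 by limma-voom), with a median of 1.23 and a summed level of 624 to 969 CPM in WT and 1543 to 2467 CPM in Rank-knockout libraries.

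Of the 6 crypt base stem cell markers, 3 were higher and 3 were not called, with a median log2 fold change of 1.05 and sums of 322 to 464 CPM against 475 to 1050.3 CPM. Of 6 Paneth cell markers, 3 were higher and 3 not called (median 1.22, and DESeq2 called 5 and limma-voom 6 higher). Each of the 3 calls, Ang4, Itln1 and Mmp7, was lost in some alternative, with adjusted p of up to 0.0533, 0.130 and 0.135. Of 7 goblet cell markers, 2 were higher and 4 lower (median -0.58). Of the 8 M cell markers, 3 were tested and 2 were higher (median 1.40), while Gp2 and Sox8 had 0 counts and Spib had a log2 fold change of 0.71 (edgeR adjusted p = 0.106). Of 6 enteroendocrine markers, edgeR called 0 (median 0.08, 1 higher at an unadjusted p under 0.05, and 0 calls by DESeq2 or limma-voom), and of 4 tested tuft cell markers 1 was lower (median -0.32). The part of these cell types in the claudin differences was not tested.

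The genes whose level followed Cldn2 most closely over the 8 libraries were Rps25 (Pearson r = 0.991 of log2 CPM), Emc8 (0.990), Mbnl3 (0.989), Timm44 (0.985) and Mybbp1a (0.984). For Cldn15 they were Lpcat3 (0.988), Slc6a20a (0.988), Cyb5a (0.988), Pbld2 (0.987) and Arhgap18 (0.986). These were the highest values among all tested genes with a mean of at least 5 CPM, they share the libraries and the difference between genotypes with Cldn2 and Cldn15, and they are a description with no test.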

How the data were processed

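The deposited table holds raw counts per gene for 8 libraries. To make it, the authors trimmed 3′ tag reads, removed abundant sequences such as ribosomal and mitochondrial RNA, aligned the rest with STAR to the mouse genome (mm10 in the submitters' processing notes) and counted sense reads with featureCounts. Their main test was DESeq2. No molecular identifiers are named, so the Wilson intervals on shares cover counting error only, while the intervals on fold changes come from the spread between libraries. Removal of abundant sequences changes the total against which CPM are taken.

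Symbols were joined by identifier from GENCODE M21 for 54495 of 54532 rows. Counts were filtered by filterByExpr, scaled by TMM and tested with edgeR 4.0.16 (R 4.3.3, robust quasi-likelihood F-test, genotype only), with Benjamini-Hochberg adjustment over 9855 genes at 0.05. TMM factors were 0.9165 to 0.9612 in WT and 1.0561 to 1.1008 in Rank-knockout libraries. CPM use TMM-scaled totals of the genes kept by the filter. Standard errors are the size of the log2 fold change divided by the square root of the test's F value. The 95% intervals were built on these standard errors. Ratios used a pseudocount of 0.5. Nothing in the labels says that samples came from separate litters or days, so p-values measure the spread between these samples. All 12 pairs of replicates within a genotype differed by more than sampling noise (chi-square per degree of freedom 3.99 to 24.4). On simulated counts with 200 genes changed 2-fold, the fit recovered 65.6% among 9739 genes tested, and 8.57% of its calls were false. These rates need not hold for the data, where 15.8% of genes were called higher and 14.6% lower, by differing sizes.

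The 9 genes and all gene lists were chosen with earlier results of these data known. The genes named were all 9 genes, every other claudin tested, up to 4 called genes with the smallest p of each list, Epcam, Marveld2 and Tjp3, and the 5 genes most correlated with Cldn2 and with Cldn15. Gp2, Sox8, Spib, Ccl20, Tnfaip2 and Marcksl1 were also named, chosen after their values were seen. Some list genes are not reported here and are left out of the lists' counts. Alternatives were DESeq2 1.42.0 and limma-voom (limma 3.58.1), other scalings, other filters, the replicate number as a block, and leaving out each library. Promoters are from RefSeq (GRCm38.p6).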

Additional observations from a re-analysis of the deposited data

Results flagged for a closer look

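In 11 of 92 sets of 4 libraries (46 genes in 2 genotypes), 1 library stood apart from the other 3 by Dixon's test at the 95% level, where chance gives about 1 in 20, or 4.6 sets. Among the 9 genes, Cldn15 had 1266 CPM in WT replicate 1 against 1236 to 1241 CPM in the others, a small gap in a tight group. Cldn23 had 1.27 CPM in WT replicate 2 against 8.22 to 8.88 CPM, and Ocln had 25.3 CPM in WT replicate 3 against 38.6 to 40.4 CPM.

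Among the other junction genes, Rank-knockout replicate 3 stood apart for Marveld2 (53.1 CPM against 37.5 to 39.1 CPM) and for Tjp3 (40.9 CPM against 51.1 to 52.5 CPM). WT replicate 3 stood apart for Amot (26.6 CPM against 23.1 to 23.3 CPM) and for Rock2 (307 CPM against 418 to 424 CPM). Among the markers, Ace had 1908 CPM in WT replicate 4 against 1320.2 to 1367 CPM, and Smoc2 had 34.3 CPM in WT replicate 1 against 18.0 to 19.1 CPM. In Rank-knockout replicate 1, Aurka had 102 CPM against 81.2 to 83.2 CPM and Birc5 had 626 CPM against 454 to 478 CPM.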

How the results depend on the processing

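With library totals as the scale, which moved the median log2 fold change over the genes tested by 0.20, 2566 genes were higher and 859 lower, so that 74.9% of calls were higher against 52.0% with TMM. Without the 50 most abundant genes the shift was 0.13 and 68.1% of calls were higher, and with no filter on low counts the shift was 0.10. Of the 9 genes, 1 was higher (Cldn2) with library totals, without the 50 most abundant genes, with limma-voom and with the replicate block, and 1 was lower (Cldn4) with library totals, without the 50 most abundant genes and with no filter. Leaving out 1 library gave 0 to 1 of the 9 genes higher and 1 to 4 lower, and 1020 to 1723 of all genes higher (1020 without WT replicate 4) and 1097 to 1564 lower. The signs reversed with library totals for Cldn3 (0.12), Cldn7 (0.12) and Ocln (0.10), without the 50 most abundant genes for Cldn3 (0.054), Cldn7 (0.049) and Ocln (0.034), and without Rank-knockout replicate 1 for Cldn3 and Cldn7, whose values with 1 library left out ran from -0.15 to 0.0058 and from -0.16 to 0.033. The cause was not tested. For single named genes, 678 values kept direction and side of the threshold, 43 lost and 7 gained a call, and 8 reversed.

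The replicate numbers were not shown to pair the samples, since deviations of same-numbered samples correlated at 0.05, 0.15, -0.14 and 0.32. With the replicate block 1708 genes were higher and 1602 lower. Under this pairing the ratio differences of Cldn2 to Cldn15 (1.74), Cldn3 (1.37) and Cldn4 (2.93) had an adjusted exact p of 0.208, where the smallest unadjusted p is 0.125. Leaving out 1 library gave log2 differences of 1.37 to 2.06 for Cldn15, 1.04 to 1.61 for Cldn3, 2.51 to 3.26 for Cldn4, 1.01 to 1.73 for Cldn7 and 1.25 to 2.84 for Cldn23. Cldn23 had 5 to 19 counts a library, and the deepest WT library held the fewest.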
